A study of Mus musculus with 21 samples.

Results

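The 10 genes described here belong to 2 linked systems, the thioredoxin system (Srxn1, Txnrd1, Txn1 and Prdx1) and enzymes of NADPH metabolism and the pentose phosphate pathway (Nqo1, Me1, G6pdx, Pgd, Taldo1 and Tkt). They were taken from the array by name, through the RefSeq accession of each probe, and are 10 of 20018 named mouse genes and 13 of 26413 named probes. Of these, 8 genes had 1 probe, Prdx1 had 2 and Me1 had 3, and the brightest probe, by its mean log2 level on all 21 arrays, stood for its gene.

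Thioredoxin is a small protein that reduces disulfides in other proteins and in peroxiredoxins, which remove peroxides, and thioredoxin reductase returns it to its reduced form with electrons from NADPH. Sulfiredoxin repairs peroxiredoxins that have been over-oxidised. Most cytosolic NADPH comes from the oxidative steps of the pentose phosphate pathway and from malic enzyme, and many of these genes are known targets of Nrf2, which competes with the repressors Bach1 and Bach2 for the same DNA elements as a partner of small Maf proteins.

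Expression was measured on 21 single-colour Agilent arrays in 7 groups of 3, in 3 experiments. The first compared common lymphoid progenitors (CLPs) sorted from the bone marrow of mice deficient in both Bach1 and Bach2 (DD) with CLPs of WT mice, each sample pooled from several mice. The second used WT multipotent progenitors (MPPs; Lin-, c-kit+, Sca-1+, Flt3mid), pooled from 4 mice per experiment, held overnight with the cytokines IL-6 (10 ng/ml), SCF (50 ng/ml) and IL-3 (5 ng/ml) and infected with a retrovirus. It held B220+ GFP+ cells that carried the Bach2-GFP vector and had 24 h of multilineage and 6 d of B-lineage culture, GFP+ MPPs with the same vector after 2 d of multilineage culture, and GFP+ MPPs with the empty MSCV-GFP control vector after the same 2 d. The third compared Bach2KO with WT follicular B cells (FoB), both cultured for 24 h with 10 ug/ml anti-IgM. The DD and Bach2KO alleles are not described further in the labels, the vector gives Bach2 above the cell's own, and no age or sex is stated for the mice. Nothing in the labels says that the 3 FoB arrays of a genotype came from separate animals, so p-values there may measure only technical spread. In bulk RNA, fewer cells of a type and less RNA per cell cannot be told apart.

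Levels below are log2 processed signal minus the array's 75th percentile, so 0 is the signal of a fairly bright probe, and differences are on the log2 scale from limma with Benjamini-Hochberg adjustment over all genes tested. A gene is said to have risen or fallen where its adjusted p was under 0.05. The share of gene spots well above background was 50.9% to 58.8% on FoB arrays and 62.6% to 81.5% on CLP and MPP arrays, and the 75th percentile was dimmest, at 97.3, on Bach2KO FoB replicate 2. Bach2 itself fell in Bach2KO FoB (log2 difference -3.76 ± 0.36, adjusted p = 9.19e-04) and read -2.11 ± 0.58 in DD against WT CLPs (adjusted p = 0.999). Its level in Bach2-vector MPPs was 1.15 ± 0.60 above that in control-vector MPPs (adjusted p = 0.774). In B220+ cells with the same vector it read -0.12 ± 0.60 against control-vector MPPs (adjusted p = 0.909) and -1.27 ± 0.60 against Bach2-vector MPPs (adjusted p = 0.230), and whether its probe reads the vector's transcript or the deleted exons is not stated. The defining markers of CLPs and MPPs were each well above background on at least 1 array of their own groups. The markers set for B220+ cells were Ptprc, Cd79a, Ebf1 and Pax5. Their summed linear level was 2.50 to 3.82 in the B220+ group, which overlapped with 1.43 to 4.58 in Bach2-vector MPPs. It was 1.52 to 1.86 in control-vector MPPs and 30.4 to 50.2 in WT FoB. Ptprc made up most of the B220+ sum, with a mean log2 level of 1.63, against 0.70 in control-vector MPPs. Pax5 read -5.80, against -4.94 there. None (0) of the 3 markers that were tested rose in B220+ cells in either comparison, with 1 above 0 and 2 below in each.

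The windows from 250 bases before to 50 bases after the start of the 10 genes, 14 in all because some genes have several starts, were searched on both strands for the AP-1 type element TGAGTCA, which reads TGACTCA on the other strand, and for the antioxidant response element core TGACNNNGC, which reads GCNNNGTCA there, to which Bach and Nrf factors with small Maf partners are known to bind. The first was present in windows of 3 genes (Srxn1, Prdx1 and Me1), and in 5.20% of all 32851 mouse windows. The second was present in 6 genes (Srxn1, Txnrd1, Prdx1, Me1, G6pdx and Pgd), and in 12.4% of all windows. Nqo1, Txn1, Taldo1 and Tkt had neither in these windows. In Prdx1 and Me1 an AP-1 type match lay inside a core match, so the 2 counts overlap.

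In all, 5 promoters are shown, chosen with the array results known: Srxn1 and Me1, the pair that moved with added and with lost Bach2, Nqo1, which rose in Bach2KO FoB with no match, and Prdx1 and G6pdx, which had matches and passed in neither of those comparisons. Each sequence is from RefSeq on GRCm38.p6, written 5′ to 3′ on the gene's strand, with the matches in capitals.
Srxn1 (chr2:152105334-152105523, plus strand): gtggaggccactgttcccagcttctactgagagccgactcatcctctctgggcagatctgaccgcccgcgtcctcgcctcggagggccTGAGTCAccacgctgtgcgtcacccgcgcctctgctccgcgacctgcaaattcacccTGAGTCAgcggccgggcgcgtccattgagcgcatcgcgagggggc
Me1 (chr9:86695910-86696104, minus strand): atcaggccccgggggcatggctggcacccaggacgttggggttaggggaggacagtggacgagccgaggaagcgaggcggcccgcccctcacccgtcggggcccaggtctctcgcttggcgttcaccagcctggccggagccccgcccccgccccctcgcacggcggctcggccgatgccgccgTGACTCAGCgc
Nqo1 (chr8:107403206-107403395, minus strand): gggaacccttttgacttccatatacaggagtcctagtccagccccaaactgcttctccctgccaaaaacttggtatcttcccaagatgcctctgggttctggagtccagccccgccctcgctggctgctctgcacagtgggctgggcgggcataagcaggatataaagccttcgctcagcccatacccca
Prdx1 (chr4:116685349-116685548, plus strand): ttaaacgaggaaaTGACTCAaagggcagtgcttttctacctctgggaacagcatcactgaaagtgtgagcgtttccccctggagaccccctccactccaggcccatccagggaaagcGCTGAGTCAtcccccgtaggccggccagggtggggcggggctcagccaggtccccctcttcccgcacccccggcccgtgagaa
G6pdx (chrX:74428881-74429030, minus strand): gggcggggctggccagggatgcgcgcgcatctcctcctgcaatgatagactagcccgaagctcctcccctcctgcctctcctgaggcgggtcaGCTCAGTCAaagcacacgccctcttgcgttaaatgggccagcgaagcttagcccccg

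The Srxn1 matches began 102 and 45 bases before the start, and a core match that is not shown began 28 bases after it. In Me1 the single match began 6 bases before the start, in G6pdx 57 bases before it, and in Prdx1 the matches began 237 and 133 bases before it. A match is a description of these letters and does not show that a factor binds there.

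Across the 7 groups the 10 genes differed in how far they moved. Srxn1, Nqo1 and Me1 spanned 7.58, 11.02 and 9.45 log2 units from the lowest to the highest array. Txn1, which encodes thioredoxin itself, spanned 1.21 and Taldo1, the transaldolase of the non-oxidative pentose phosphate pathway, 1.36. The other 5 genes lay between 2.75 (Pgd) and 4.19 (G6pdx). All 10 were detected, but Nqo1 and Me1 were well above background on 16 of 21 arrays each, against all 21 for the other 8. The widest ranges include arrays near background, where a log2 value is poorly measured.

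**Figure D1:**
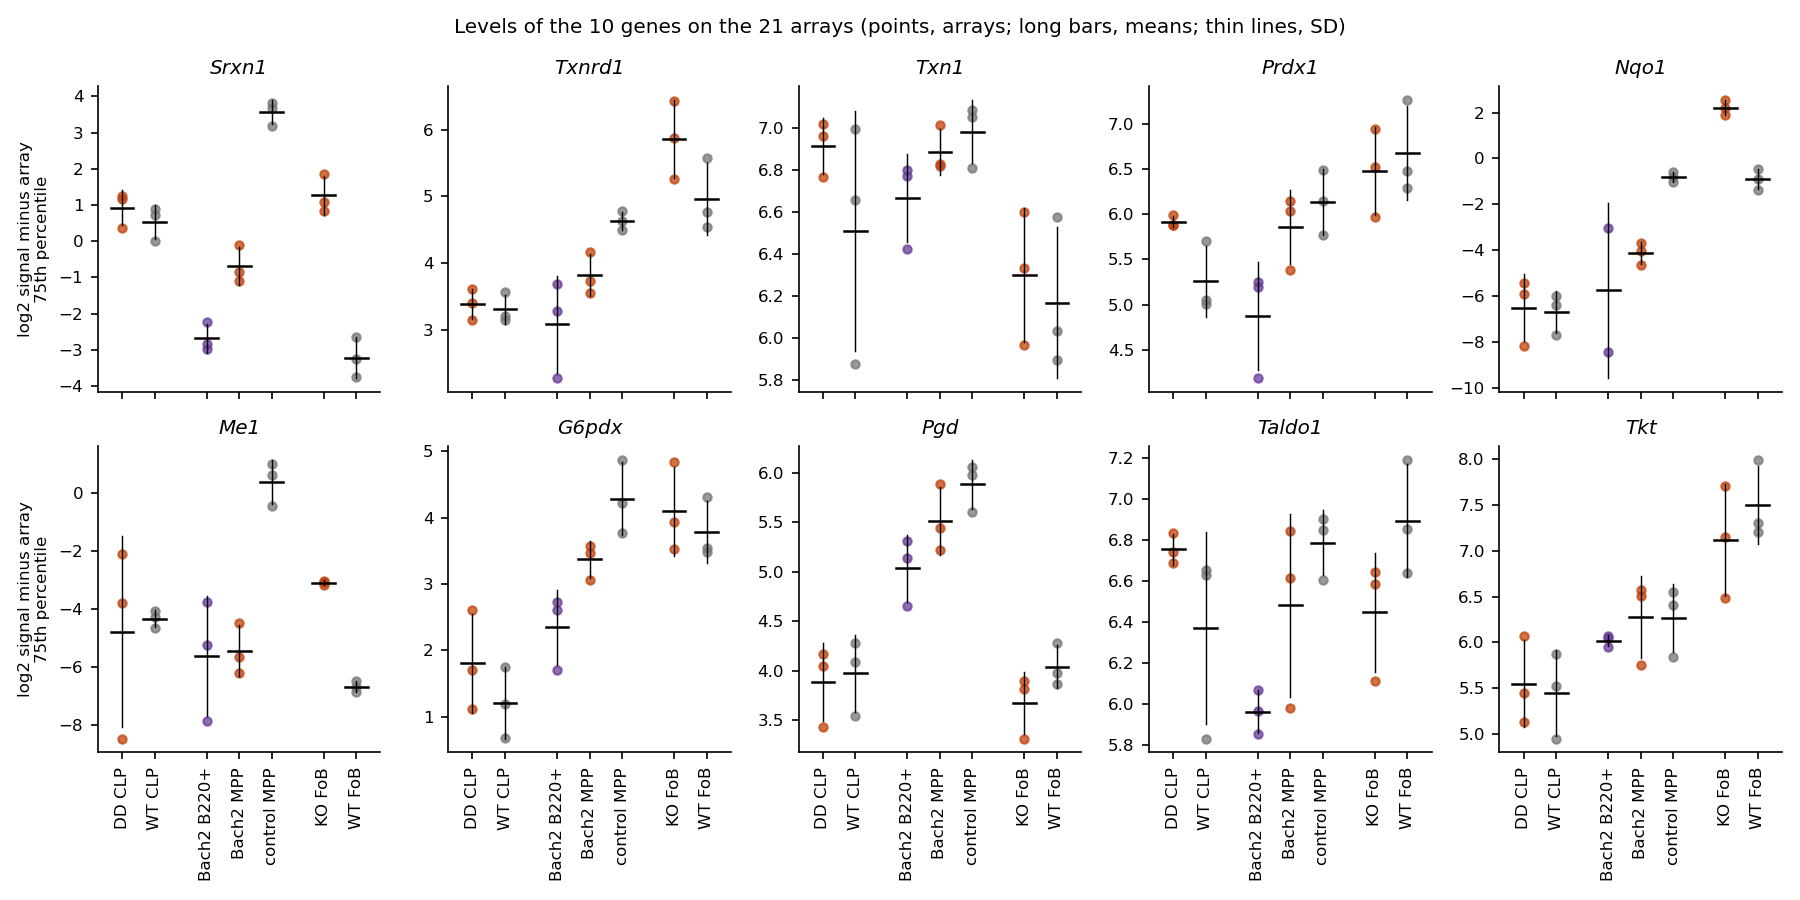
Levels of the 10 genes on each of the 21 arrays (points), with group means (long bars) and SD (thin lines, n = 3, and n = 2 for Nqo1 in the B220+ group), as log2 signal minus the array's 75th percentile; each panel has its own axis. Orange marks DD, Bach2-vector MPP and Bach2KO arrays, purple B220+ arrays, and grey WT and control-vector arrays. Srxn1 and Me1 were highest in control-vector MPPs, the lowest Srxn1 means were those of WT FoB and B220+ cells, whose arrays overlapped, and Me1 was not well above background in WT FoB, whereas Txn1 stayed between 5.88 and 7.09.

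Srxn1, which encodes sulfiredoxin, was highest in control-vector MPPs (3.57 ± 0.33, SD, n = 3). It was followed by Bach2KO FoB at 1.26 ± 0.53, DD CLPs at 0.93 ± 0.48 and WT CLPs at 0.53 ± 0.47, and the arrays of these 3 groups overlapped from one to the next. Bach2-vector MPPs (-0.68 ± 0.52) lay below the WT CLPs and above the B220+ group (-2.69 ± 0.41), and the lowest group, WT FoB at -3.22 ± 0.56, overlapped with the B220+ group. Groups of different experiments were not tested against each other, since culture and RNA amplification differ between them.

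The vector comparison asks what added Bach2 does to cultured MPPs. Of the 10 genes, 2 fell in Bach2-vector MPPs, Srxn1 and Me1, none rose (0), and 8 did not pass, where 0.724% of the 16982 genes tested fell and 1.07% rose. For 9 genes the log2 difference was below 0, as were 52.8% of those of all genes, and the median over the 10 was -0.59, against -0.021 over all genes. For 5 of them every Bach2-vector array lay below every control-vector array, as for 7.29% of all genes.

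Srxn1 read -0.10, -0.85 and -1.10 on the 3 Bach2-vector arrays, against 3.82, 3.69 and 3.19 on the control-vector arrays. The groups lay more than 3 log2 units apart with no overlap. The level was 19.0-fold lower with the Bach2 vector (log2 difference -4.25 ± 0.35 (SE), adjusted p = 0.00112). Within the slides that held both groups it was -3.92 on slide 1 (1 array each) and -4.41 on slide 2 (2 arrays each).

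Me1, the cytosolic malic enzyme that makes NADPH from malate, read -5.64, -4.47 and -6.18 with the Bach2 vector, against 1.00, 0.62 and -0.44 with the control vector. Every Bach2-vector array was again below every control-vector array, and all were well above background. The difference was -5.82 ± 0.93, or 56.4-fold lower (adjusted p = 0.0162). It passed no longer when control replicate 1 or 2 or Bach2-vector replicate 1 or 3 was left out (adjusted p = 0.0790, 0.0773, 0.0594 and 0.0847), with differences from -5.44 to -5.71. The 2 other Me1 probes were lower too, with differences of -2.90 and -4.37.

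Nqo1, a quinone reductase that spends NADPH or NADH, read -4.63, -4.03 and -3.68 in Bach2-vector MPPs, against -0.59, -0.81 and -1.02 in control-vector MPPs. The arrays of the groups did not overlap, but the fit shared its spread with the B220+ arrays, which read -8.47 and -3.05, and the difference of -3.31 ± 1.14 did not pass (adjusted p = 0.341). With only these 6 arrays in the fit the same difference had an SE of 0.30 and an adjusted p of 0.00702.

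G6pdx, the first enzyme of the oxidative branch, read 3.58, 3.06 and 3.47 with the Bach2 vector, against 4.87, 4.22 and 3.77 with the control vector. Txnrd1, the cytosolic thioredoxin reductase, read 3.72, 4.16 and 3.55, against 4.50, 4.63 and 4.77. For both the arrays did not overlap, and neither difference passed (-0.91 ± 0.37, adjusted p = 0.486, and -0.82 ± 0.36, adjusted p = 0.583). The remaining 5 had differences between -0.37 (Pgd, 95% interval -1.01 to 0.27) and 0.010 (Tkt, 95% interval -0.66 to 0.69), all with an adjusted p of 0.9999. Among them the main Prdx1 probe gave -0.28, with overlapping arrays. The other Prdx1 probe gave -0.68, and there every Bach2-vector array lay below every control-vector array.

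Some markers of other cell types also moved in this comparison. Of 10 granulocyte markers, 1 fell (Mmp8, a neutrophil collagenase, -6.09, adjusted p = 0.00241), 9 were below 0, and their summed linear level was 280 to 353 in Bach2-vector MPPs, against 387 to 413 in control-vector MPPs. Of 9 macrophage markers F13a1 fell (-4.30, adjusted p = 0.0377), with 6 below 0 and 3 above. Of 3 NK markers tested Klrd1 rose (4.67, adjusted p = 0.00891), and all 3 were above 0. Of 5 plasma cell markers Irf4 rose (2.90, adjusted p = 0.0143), with 3 above 0 and 2 below. The summed plasma cell level was lower all the same, at 52.0 to 61.7 in Bach2-vector MPPs, against 65.5 to 91.7 in control-vector MPPs. The part of these cells in the result was not tested.

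**Figure D2:**
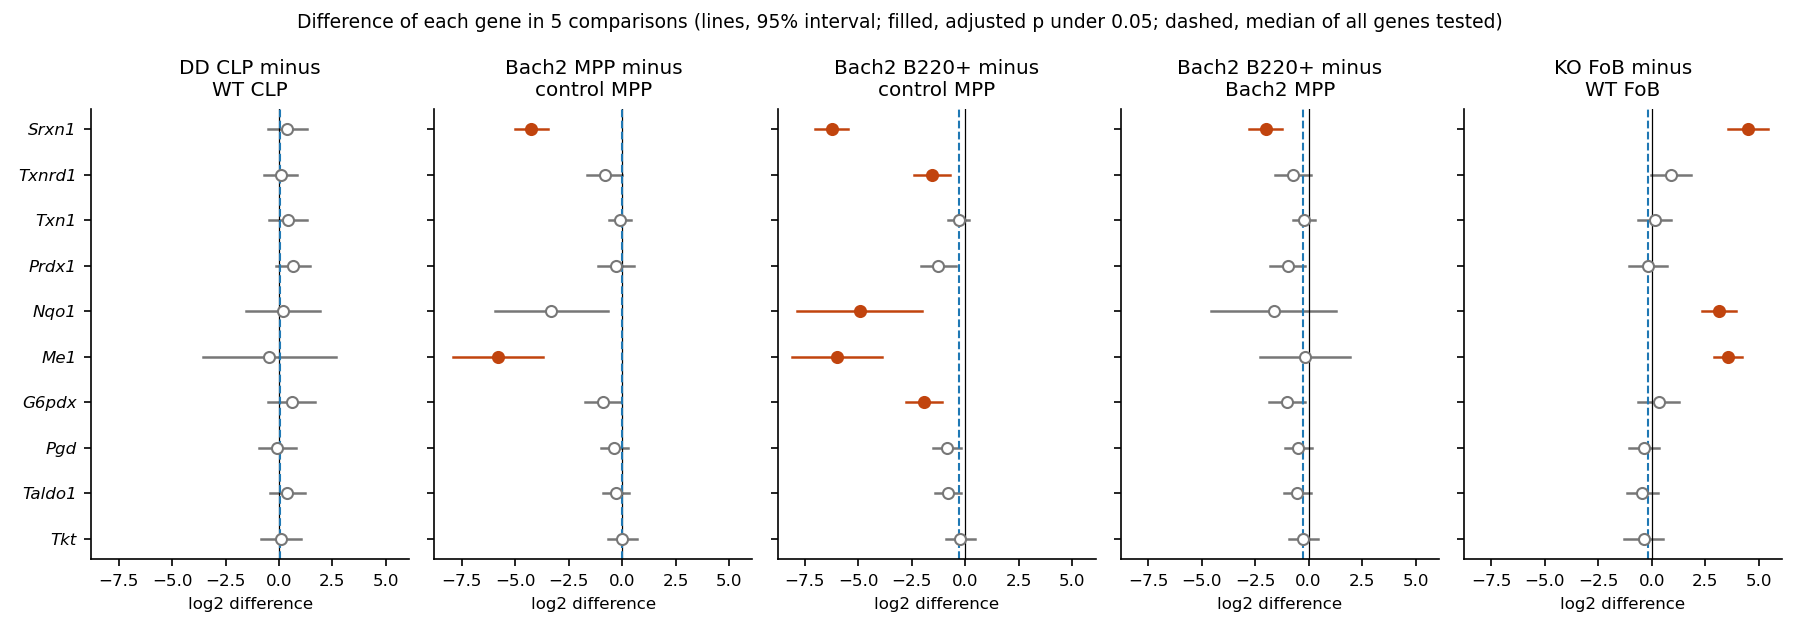
Log2 difference of each gene in 5 comparisons (points, fitted; lines, 95% interval from limma; filled points, adjusted p under 0.05; dashed lines, median of all genes tested), with the first-named group minus the second. Srxn1 is filled in the 4 comparisons other than DD against WT CLPs, and Txn1, Prdx1, Pgd, Taldo1 and Tkt are filled in none.

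In B220+ cells with the Bach2 vector, 5 of the 10 genes fell against control-vector MPPs, Srxn1, Me1, G6pdx, Txnrd1 and Nqo1, and 0 rose, where 7.45% of genes fell and 4.66% rose. Vector, culture and sort differ together here, and the control arrays are those of the vector comparison. All 10 were below 0, as were 65.8% of all genes, and their median was -1.41, against -0.29 over all genes. Under quantile normalization the median over all genes was -0.083 and that of the 10 was -1.29. For 9 genes every B220+ array lay below every control array, as did 23.5% of all genes.

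Srxn1 read -2.22, -2.99 and -2.85 in B220+ cells, against the 3.19 to 3.82 of control-vector MPPs given above. The level was 76.2-fold lower (-6.25 ± 0.35, adjusted p = 6.29e-05), and on slide 1 alone, with 3 B220+ arrays and 1 control array, it was -6.51. Me1 read -3.74, -5.23 and -7.84, with the last array not well above background. All 3 were below the control arrays, by 63.9-fold on average (-5.997 ± 0.93, adjusted p = 0.00404).

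G6pdx read 2.72, 1.70 and 2.61 in B220+ cells and fell 3.83-fold against control-vector MPPs (-1.94 ± 0.37, adjusted p = 0.0107). Txnrd1 read 3.28, 3.68 and 2.27 and was 2.94-fold lower (-1.56 ± 0.36, adjusted p = 0.0258). All B220+ arrays of both genes lay below all control arrays. The Txnrd1 call was lost with slide as a block (-1.44, adjusted p = 0.0935), with only these 2 groups in the fit (adjusted p = 0.0541), and without control replicate 2 or 3 or B220+ replicate 1 (adjusted p = 0.0868, 0.0880 and 0.0544). Nqo1 had 2 usable B220+ arrays, at -8.47 and -3.05, since its spot on the first was marked an outlier and dropped. The first of these was not well above background, and its fall (-4.95 ± 1.28, adjusted p = 0.0430) was lost with the marked spot kept (-3.32, adjusted p = 0.183) and passed in 7 of 16 alternatives.

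The other 5 did not pass. Prdx1, the abundant peroxiredoxin that Srxn1 repairs, read 5.25, 5.19 and 4.18 in B220+ cells, against 5.77, 6.14 and 6.49 in control-vector MPPs (-1.26 ± 0.37, adjusted p = 0.0568). Pgd, the second NADPH-forming enzyme of the oxidative branch, differed by -0.85 (adjusted p = 0.0856) and Taldo1 by -0.82 (adjusted p = 0.0801). Txn1 (-0.32) and Tkt (-0.25), the transketolase, had adjusted p of 0.359 and 0.603. The mean of both Prdx1 probes gave -1.26 with an adjusted p of 0.0294.

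Against Bach2-vector MPPs, which carry the same vector, 1 of the 10 genes fell further in B220+ cells, Srxn1, and 0 rose, where 4.16% of genes fell and 2.01% rose. Its levels of -2.22, -2.99 and -2.85 all lay below the -0.10, -0.85 and -1.10 of Bach2-vector MPPs, 4.01-fold lower (-2.00 ± 0.35, adjusted p = 0.0114), and the difference was -2.59 within slide 1 (3 arrays against 1). G6pdx (-1.03, adjusted p = 0.145), Prdx1 (-0.98, adjusted p = 0.152) and Txn1 (-0.22, adjusted p = 0.559) did not pass, although with Srxn1 they made 4 genes whose B220+ arrays all lay below, as did 21.7% of all genes. Me1 differed by -0.18, with a 95% interval of -2.28 to 1.92 that leaves its direction unsettled, and its other probes gave -0.80 and -1.60. All 10 were below 0, as were 65.6% of all genes, and the median was -0.63, against -0.25 for all genes.

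Some markers of other cells also differed in the B220+ group. Its summed early-B level was 43.4 to 52.4, against 1.95 to 4.03 in Bach2-vector and 0.892 to 1.54 in control-vector MPPs. Dntt, the terminal transferase, made up most of it, with a mean log2 level of 5.58 in B220+ cells. Of the 5 early-B markers tested against control-vector MPPs, 1 rose (Dntt) and 3 were below 0, with a median of -0.21. The summed level of mast cell and basophil markers was 21.99 to 162 in B220+ cells. It was 18.2 to 46.5 in Bach2-vector MPPs, which overlapped, and 6.57 to 18.3 in control-vector MPPs. Of these 5 markers 1 rose (Prss34) in each comparison, and all 5 were above 0. B220+ granulocyte markers summed to 332 to 409, which overlapped with 280 to 353 in Bach2-vector and 387 to 413 in control-vector MPPs. Of these 10, 2 rose and 2 fell against control-vector MPPs, and 2 rose and 1 fell against Bach2-vector MPPs. The part of these cells in the results was not tested.

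The FoB comparison asks what loss of Bach2 does to stimulated B cells. Of the 10 genes, 3 rose in Bach2KO FoB, Srxn1, Me1 and Nqo1, and 0 fell, where 2.19% of the 13067 genes tested rose and 0.513% fell. Me1 met the filter for testing through the Bach2KO arrays alone, being well above background on 0 WT arrays. Its adjusted p therefore sets signal against background and is weaker ground than those of Srxn1 and Nqo1. With replicate number as a block, 1248 of all genes rose and 1728 fell, so that more fell than rose, and 4 of the 10 rose. Of the 10, 6 were above 0, against 38.1% of all genes, the median was 0.22, against -0.16 over all genes, and every Bach2KO array lay above every WT array for 3 genes, as for 8.1% of all genes.

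Srxn1 read 1.86, 0.83 and 1.09 in Bach2KO FoB, against -3.76, -2.64 and -3.27 in WT FoB. The lowest Bach2KO array was over 3 log2 units above the highest WT array. The level was 22.4-fold higher (4.49 ± 0.41, adjusted p = 8.26e-04), with 5.62 on slide 1 (1 array each) and 3.92 on slide 2 (2 each). Nqo1 read 2.55, 1.90 and 2.18, against -0.48, -1.36 and -0.90, with no overlap. It was 8.71-fold higher (3.12 ± 0.35, adjusted p = 0.00182), by 3.03 and 3.17 within the slides, and no other of the 7 groups reached its Bach2KO level.

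Me1 was well above background on all 3 Bach2KO arrays, at -3.01, -3.06 and -3.17, and on 0 of the 3 WT arrays, which read -6.66, -6.46 and -6.86. The level was at least 2.89-fold higher in Bach2KO FoB, with the WT group set at the lowest signal well above background on each array, and the fitted difference had an adjusted p of 4.89e-04. The 2 other probes gave at least 1.51-fold and at least 1.94-fold. With normexp background correction in place of the processed signal the difference was 0.72 (adjusted p = 0.637), and the call was lost.

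Txnrd1 read 6.44, 5.26 and 5.88 in Bach2KO FoB, against 5.58, 4.54 and 4.77 in WT FoB. The groups overlapped, but replicates of the same number moved together, and the difference of 0.90 ± 0.42 (adjusted p = 0.493) passed with replicate number as a block (SE 0.20, adjusted p = 0.00529) and with slide as a block (adjusted p = 0.0440). Over all genes the block raised the number that passed from 353 to 2976. The other 6 did not pass in either fit. G6pdx (0.32) and Txn1 (0.13) were above 0, and Prdx1 (-0.20), Pgd (-0.36), Tkt (-0.38) and Taldo1 (-0.45) below.

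Some markers of other cells differed between these genotypes. Of 7 erythroid markers 2 rose (Alas2 and Hba-a1, of heme and hemoglobin synthesis), with a summed level of 4.73 to 17.1 in Bach2KO FoB, against 0.609 to 1.91 in WT FoB. Granulocyte markers summed to 10.8 to 49.2, against 1.57 to 16.5, which overlapped, and 0 of the 6 tested passed. Of those 6, 5 were above 0 and 1 below, with a median of 2.93, against -0.16 over all genes. Of 5 plasma cell markers, Prdm1 and Jchain rose. Their list had a summed level of 112 to 205, which overlapped with 87.9 to 151 in WT FoB. Of the follicular B-cell markers Ms4a1, Cd79a, Cd22, Cr2 and Fcer2a, all 5 were below 0 and Cr2, a complement receptor, fell (-2.06, adjusted p = 0.00878). Their summed level was 54.1 to 97.6 in Bach2KO FoB, against 123 to 228 in WT FoB, with no overlap. The part of these cells in the results was not tested.

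**Figure D3:**
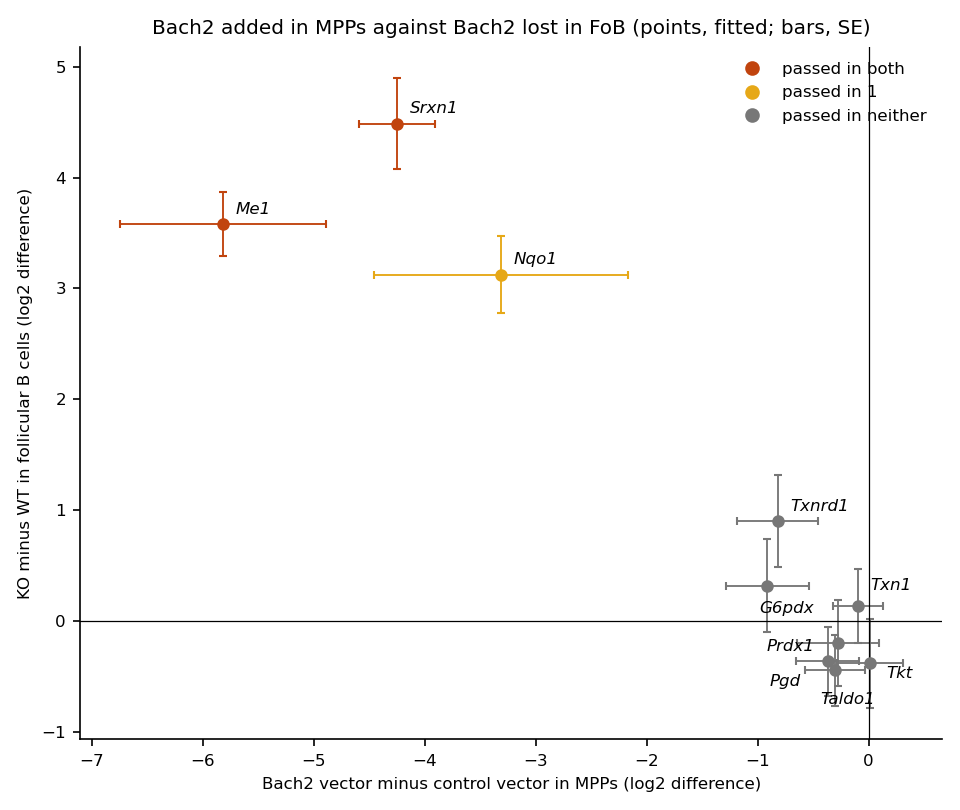
Log2 difference of each gene with added Bach2 (Bach2-vector minus control-vector MPPs, x axis) against the difference with lost Bach2 (Bach2KO minus WT FoB, y axis), with SE bars. Srxn1 and Me1 (red) passed in both, Nqo1 (yellow) passed in FoB and not with the vector, Me1 in WT FoB was not well above background, and the other 7 lie within 1 log2 unit of 0 on both axes.

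Of 12989 genes tested in both experiments, 60 fell with the Bach2 vector and 273 rose in Bach2KO FoB, and 19 did both, which is 31.7% of the first and 6.96% of the second. Over all genes tested in each experiment, 0.724% fell with the Bach2 vector and 2.19% rose in Bach2KO FoB. Srxn1 and Me1 were among the 19, 2 of the 10 members, all tested in both. Me1 met the FoB filter through the Bach2KO arrays alone. These 2 experiments share no arrays, but differ in cell type, culture and RNA amplification.

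In CLPs, DD against WT, 0 of the 10 genes passed in either direction with limma (adjusted p of 0.999 for each), and 0 had an unadjusted p under 0.05. Over all 16453 genes 1 passed, so 0.00608% rose and 0% fell, and 619 had an unadjusted p under 0.05. Of the 10, 8 were above 0, against 53.7% of all genes, and their median was 0.29, against 0.039.

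Srxn1 read 1.17, 1.24 and 0.37 in DD CLPs, against -0.0038, 0.88 and 0.72 in WT CLPs. The groups overlapped, and the difference was 0.40 (95% interval -0.54 to 1.33). Within slides, each of which held 1 array of both genotypes, it was 1.17, 0.36 and -0.35.

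Prdx1 read 5.88, 6.00 and 5.88 in DD CLPs, against 5.05, 5.71 and 5.01 in WT CLPs, and Taldo1 6.74, 6.84 and 6.69, against 6.63, 6.66 and 5.83. In both, all DD arrays lay above all WT arrays, as in 4.93% of genes, with differences of 0.66 (95% interval -0.12 to 1.45) and 0.38 (95% interval -0.44 to 1.21). The difference of G6pdx was 0.60 (95% interval -0.50 to 1.69). Nqo1 was near background, on 2 of 3 DD and 1 of 3 WT arrays above it, and one DD array of Me1 at -8.45 widened its interval to -3.55 to 2.66.

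The difference between the FoB and CLP loss effects was tested itself, although the alleles, cell types and RNA amplification differ together. Srxn1 was the single member that passed (4.09 ± 0.61, adjusted p = 0.00859), where 0.414% of 16670 genes were higher and 0.066% lower. With normexp background correction that call was lost (2.37, adjusted p = 0.0829). The differences were 2.93 for Nqo1 (adjusted p = 0.303) and 4.03 for Me1 (adjusted p = 0.474). Neither size is well measured, since Me1 was well above background on 0 of 3 WT FoB arrays and Nqo1 on 2 DD and 1 WT CLP arrays.

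The other genes of these pathways, from lists written with earlier results of the data known, mostly did not pass. Of 25 further thioredoxin, peroxiredoxin, glutaredoxin and methionine sulfoxide reductase genes, 0 passed with the Bach2 vector, in DD CLPs or in Bach2KO FoB (24 tested there). In B220+ cells against control-vector MPPs, 4 of the 25 rose and 3 fell, among them Sesn3 (2.47), Msrb3 (1.92) and Txnip (1.51), the thioredoxin-binding protein, which rose, and Msra (-1.50), which fell. Their median was -0.59, against -0.29 over all genes. Of all genes 7.45% fell and 4.66% rose in this comparison, which is also the share to set beside the lists below.

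Of 21 further pentose phosphate and NADPH genes, 0 passed with the Bach2 vector, in DD CLPs or in Bach2KO FoB (20 tested there). In B220+ cells against control-vector MPPs 1 rose (Shpk, 1.69) and 3 fell (Mthfd2l, -1.61, H6pd, -1.61, and Prps1, -0.88). H6pd encodes the hexose-6-phosphate dehydrogenase of the endoplasmic reticulum. Isocitrate dehydrogenase Idh1, another source of cytosolic NADPH, differed by -1.35 ± 0.43 with the Bach2 vector (adjusted p = 0.246).

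Among 18 genes whose products spend NADPH, Gsr, the glutathione reductase, fell with the Bach2 vector (-1.82 ± 0.35, adjusted p = 0.0387), and 17 did not pass. In B220+ cells against control-vector MPPs, Gsr (-2.86), Cbr3 (-4.67) and Por (-1.62), the electron donor of cytochrome P450s, fell and 15 did not pass. In DD CLPs and Bach2KO FoB 0 passed (17 tested in FoB).

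Of 19 other antioxidant-response genes, 3 fell with the Bach2 vector, Slc7a11, the cystine transporter (-5.74), Gclm, a subunit of the enzyme that starts glutathione synthesis (-3.21), and Gsta4 (-2.29). Gsta4 was well above background on only 1 of the 3 Bach2-vector arrays, so the size of its fall is poorly measured. All 19 were below 0, as were 52.8% of all genes. In B220+ cells against control-vector MPPs 9 fell and 10 did not pass, where 7.45% of all genes fell. Against Bach2-vector MPPs Osgin1 fell (-5.08). In Bach2KO FoB 2 of 17 rose, Hmox1, heme oxygenase 1 (65.6-fold), and Fth1, ferritin heavy chain (1.40). In DD CLPs 0 of 18 passed, with Gclm at 1.91 ± 0.47 (adjusted p = 0.944) and Hmox1 at 1.66 ± 0.41 (adjusted p = 0.975).

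**Figure D4:**
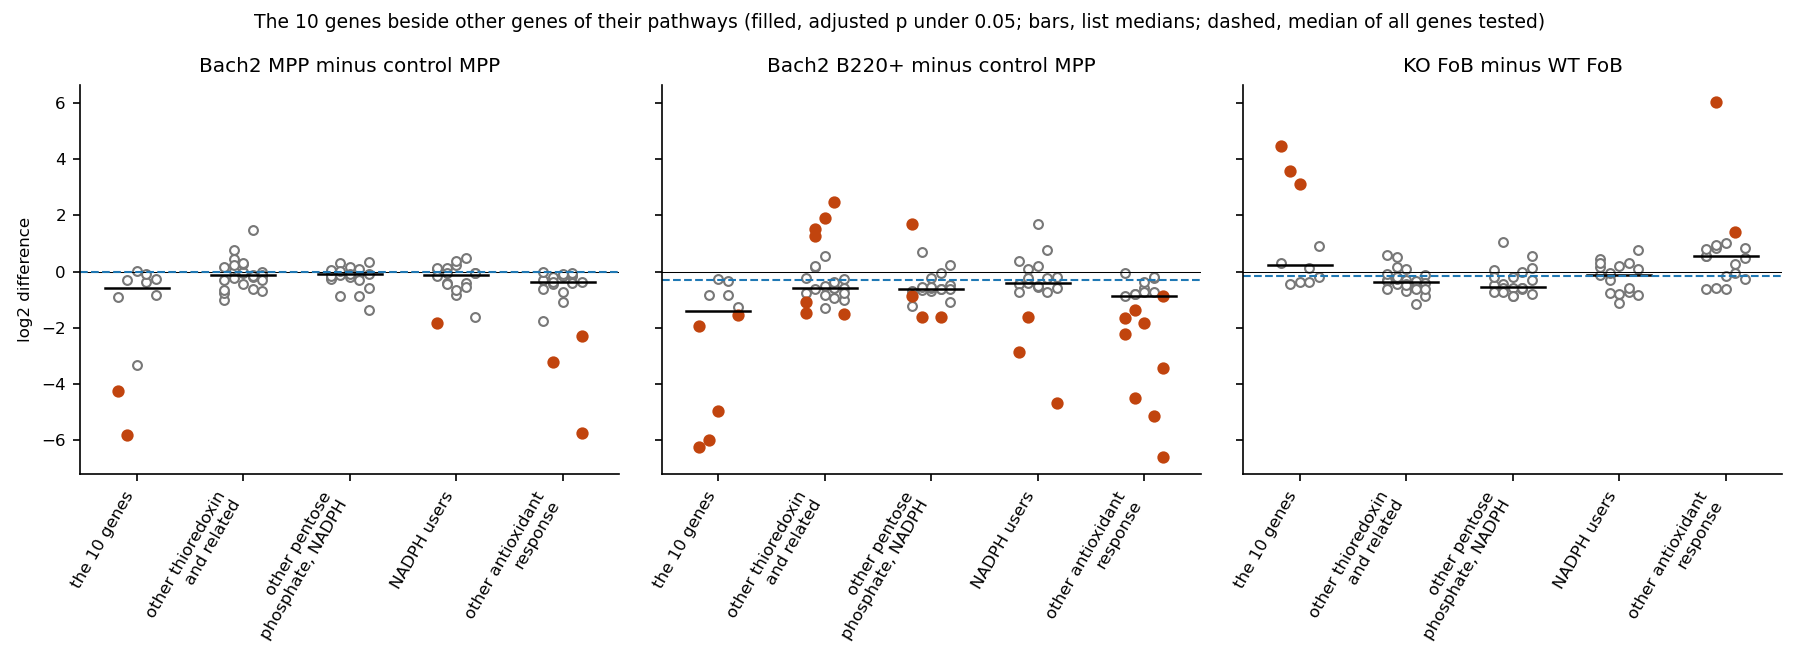
Log2 differences of the 10 genes and of genes of 4 related lists in 3 comparisons (each point a gene; filled, adjusted p under 0.05; bars, list medians; dashed lines, median of all genes tested). With the Bach2 vector the filled points are Srxn1, Me1, Gsr, Slc7a11, Gclm and Gsta4, all below 0.

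Of the 9 regulators, Nfe2l2, which encodes Nrf2, did not pass in any comparison, with differences of -0.083 in DD CLPs, -0.14 with the Bach2 vector, -0.47 in the B220+ group against control-vector MPPs and -0.33 against Bach2-vector MPPs, and 0.18 in Bach2KO FoB. Bach1 did not pass either, and read 0.53 ± 0.30 in Bach2KO FoB (adjusted p = 0.616). In DD against WT CLPs Bach1 read -0.52 ± 0.45 (adjusted p = 0.999) and was well above background on all 3 DD arrays. Whether the Bach1 probe reads the deleted exons is not stated. In B220+ cells against control-vector MPPs Nfe2l1 (-1.24) and Mafg (-1.38) fell, and in Bach2KO FoB Nfe2 rose (1.59).

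Likeness to the leading genes was described over the 21 arrays after the mean of each experiment was removed, which leaves the group differences in, over 15074 genes. The 5 genes most like Srxn1 were Slc39a4 (r = 0.952), Ttc39c (0.944), Pcbd1 (0.943), Fosl1 (0.938) and Itgb5 (0.928). Those most like Me1 were Ttc39c (0.863), Prkar2b (0.851), Itga6 (0.831), Atp11a (0.824) and Syde2 (0.817). Those most like the mean of G6pdx, Pgd, Taldo1 and Tkt were Polr3d (0.929), Psmd11 (0.929), Mrm3 (0.920) and Noc4l (0.916), with 1 gene known only by a RIKEN name. Among the 10 themselves the highest r were 0.84 between Nqo1 and Srxn1 (20 arrays), 0.84 between Taldo1 and Prdx1 and 0.80 between Me1 and Srxn1, and the lowest was -0.055 between Tkt and Srxn1. Arrays share a slide, amplification and brightness, and these values carry no test.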

How the data were processed

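RNA was hybridised to 21 single-colour Agilent arrays of 62976 spots, 3671 of them controls, in 7 groups of 3. The deposited scanner files hold intensity values that the authors' software had background-corrected, per the file headers with Feature Extraction 10.7.3.1 and the mm9 design, whereas the submitters' processing notes name Agilent Feature Extraction 9.1; the series' value table held the same intensity values. CLP and MPP RNA had 2 rounds of amplification and FoB RNA linear amplification, per the labels' protocols. Log2 processed signal minus the array's 75th percentile over gene spots was computed, outlier-marked spots were dropped and spots of a probe averaged. No gene spot was saturated and 0 array pairs were identical. The number of arrays limits the precision, and signal over background limits it for dim probes.

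Of 55681 probes, 26413 were named through RefSeq accessions on GRCm38.p6, giving 20018 genes, and 29268 were not. Each gene had 1 probe, that of the highest mean. Genes with signal well above background on 3 or more of an experiment's arrays and at least 2 values per group, were tested with limma 3.58.1 (lmFit, eBayes) in R 4.3.3 with the data.table package (1.17.8), with 3 groups in 1 fit for the MPP arrays. Python 3.11.15, pandas 2.3.3, numpy 2.4.6 and matplotlib 3.10.9 did the rest. The fit was tested on simulated data. Members, lists and the genes named (all members, Bach1, Bach2 and Nfe2l2, and of each list those that passed, at most 4 by smallest p, or the 2 of smallest p) were chosen with earlier results of these data known.

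Replicates of the same number deviated together in the CLP comparison (r = 0.43, 0.39 and 0.22), the vector comparison (0.65, 0.41 and 0.30) and the FoB comparison (0.86, 0.72 and 0.54), all above 0.1. Numbers 2 and 3, which share a slide in the last 2, also deviated together across groups. Their r was 0.31 and 0.22 in the vector comparison and 0.50 and 0.23 in FoB. These values do not fully separate pairing by number from a shared slide. In the B220+ comparisons the values for the same number were not all above 0.1. The CLP slides hold 1 replicate number each; slide 1 of the MPP experiment holds all B220+ arrays. Alternatives were quantile normalization, normexp (offset 50) on median signals (mean signals were not used here), filters, all probes of a gene, kept outlier spots, an intensity trend, the value table, replicate and slide blocks, 2-group fits and leaving out each array. Some marker results are not reported here.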

Additional observations from a re-analysis of the deposited data

Results flagged for a closer look

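Srxn1 was singled out because the effect of losing Bach factors differed between cell types by a test of the difference itself. Its Bach2KO minus WT difference in FoB exceeded its DD minus WT difference in CLPs by 4.09 ± 0.61 on the log2 scale (limma, adjusted p = 0.00859), with 4.49 in FoB and 0.40 in CLPs. All 3 Bach2KO arrays lay above all 3 WT FoB arrays, and the DD and WT CLP arrays overlapped. With normexp background correction it was 2.37 (adjusted p = 0.0829). Genotype, cell type, stimulation and RNA amplification differ together between the experiments and cannot be told apart.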

How the results depend on the processing

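Of 1023 alternatives for single genes, 952 kept direction and side of the threshold, 20 lost a call, 15 gained one and 36 turned sign, none of those (0) for a gene that had passed. Srxn1 passed under every alternative in the vector, both B220+ and FoB comparisons. Members passing with the Bach2 vector numbered 2, 3 with normexp or only the 2 groups in the fit, and 1 when every array had to be above background. Under that filter 8 members were tested, and Me1 and Nqo1 were not. Leaving out arrays gave 1 to 2. Against control-vector MPPs B220+ cells had 5, against 8 with the intensity trend and 3 with the slide block or only 2 groups; leaving out arrays gave 3 to 5. Against Bach2-vector MPPs leaving out arrays gave 1 to 2 (2 without B220+ replicate 3, where Nqo1 passed at -4.35). The loss comparison had 1, and 0 with normexp, where 23 genes in all passed, against 80. In FoB, leaving out a Bach2KO array gave 2, since Me1 then had fewer than 3 arrays above background and was not tested. Under quantile normalization B220+ cells against control-vector MPPs had 1008 genes higher and 1028 lower, against 791 and 1266, and in FoB 353 genes passed as reported and 123 with normexp. The replicate block changed the members' calls only in FoB (Txnrd1) and B220+ against control (Nqo1, -5.02, adjusted p = 0.0621), and the genes called in CLPs from 1 to 0; in the B220+ comparisons the numbers do not pair the arrays. The causes were not tested.

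Sign turned under quantile normalization for Tkt (-0.22) and Txnrd1 (-0.062) in CLPs, Tkt in the B220+ group against control-vector (0.16) and against Bach2-vector MPPs (0.14), Me1 (0.37) and Txn1 (0.065) against Bach2-vector MPPs, Prdx1 in FoB (0.013), and Pgd (0.085), Tkt (0.14) and Txn1 (0.14) in the loss comparison. With normexp it turned for Me1 in CLPs (0.31), Tkt with the vector (-0.0037) and Me1 against Bach2-vector MPPs (0.27), and with the slide block for Tkt in both B220+ comparisons (0.22 and 0.21). Leaving out single arrays turned the sign of genes that had not passed, with ranges in CLPs of -1.79 to 1.39 for Me1, -0.32 to 1.03 for Nqo1, -0.30 to 0.14 for Pgd, -0.16 to 0.31 for Tkt and -0.029 to 0.21 for Txnrd1, and with the vector of -0.20 to 0.27 for Tkt. Against Bach2-vector MPPs they were -1.11 to 0.94 for Me1 and -4.35 to 1.07 for Nqo1, in FoB -0.051 to 0.61 for G6pdx, -0.43 to 0.096 for Prdx1 and -0.018 to 0.34 for Txn1, and in the loss comparison -0.65 to 0.12 for G6pdx and -0.52 to 0.042 for Txn1. The total of genes passing with the vector was 305, and 96 to 198 with 1 array of these groups left out.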
